A study of Gallus gallus with 26 samples.

Results

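Late-stage ovarian tumour was compared with early-stage ovarian tumour of the hen by the microRNAs (miRNAs) counted in each. All 1235 miRNA names of the deposited miRNA table were taken, which are also all the names measured in the series, and the comparison set 5 late tumour samples against 4 early tumour samples. The labels call the groups late-stage ovarian cancer and early-stage ovarian cancer, with 4 samples of normal ovary beside them, which makes 13 miRNA libraries in all. They give no breed, age, treatment, grade or tumour type, and nothing in them tells whether each sample is a different hen, so a p-value here covers the scatter among these libraries, which may be technical. A sample is called by its stage and its code number.

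A miRNA is cut from a hairpin, and each hairpin can leave an RNA from its left arm (5p) and one from its right arm (3p). An Argonaute protein holds one of them and lowers the messenger RNAs to which its 5′ end, the seed, pairs. Many miRNA genes sit next to each other and are read as one transcript, and others lie inside protein-coding genes. Several are used as signs of a tissue or cell type, such as miR-451 of red blood cells, miR-126 of blood vessels, miR-223 of myeloid cells, miR-200 of epithelia and miR-202 of the gonad.

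Tumour miRNA libraries held 3038926 to 7728289 counts. Of the 1235 names, 458 had no count in any of the 13 libraries, and 266 passed a filter on low counts (edgeR's filterByExpr, minimum count 10). These 266 held at least 99.986% of every library. The most abundant miRNA, miR-26a-2-5p, took 23.2% to 33.2% of counts in late samples and led 3 of the 4 early libraries, while in early sample 11 miR-451 led with 36.3%. The miR-451 share elsewhere was 3.51% to 11.6% in late samples and 3.83% to 8.78% in the other early samples. On the first principal component of log2 CPM (counts scaled to a library of 1000000), which held 24.3% of the variance among tumour libraries, late samples ran from -9.62 to 3.31 and early samples from -2.42 to 7.28. On the second, with 18.0%, late samples ran from 0.25 to 7.325 and early samples from -7.78 to 1.46. The groups overlapped on each component taken alone. Values below are normalised CPM, the counts divided by the library total after TMM scaling, as mean ± SD over 5 late and 4 early samples.

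No miRNA passed the test between late and early tumour. By edgeR's quasi-likelihood test with Benjamini-Hochberg adjustment, 0 of 266 miRNAs (0%) had an adjusted p under 0.05. At an unadjusted p under 0.05 there were 38 (14.3%), of which 14 (5.26%) were higher and 24 (9.02%) lower in late tumour. DESeq2 called 4 miRNAs (1.5%), miR-24-3p, miR-193b-3p and miR-365-3p lower and miR-184-3p higher, and limma voom with quality weights called 0 (0%). In normalised CPM, late and early samples did not overlap for 9 miRNAs (3.38%), with 3 higher (1.13%; miR-19b-3p, miR-30a-3p and miR-199-3p) and 6 lower (2.26%; miR-24-3p, miR-193b-3p, miR-365-3p, miR-1454, miR-1456-5p and let-7l-5p) in late tumour. For all of these but miR-1454 and miR-199-3p, this separation depends on the TMM scaling. As a plain share of counts, miR-24-3p was higher in late sample 7 (24185 of 5750033) than in early sample 21 (28197 of 7728289). So was miR-365-3p in late sample 3 (350 of 5132029) than in early sample 21 (390 of 7728289). On the higher side, miR-19b-3p was lower in late sample 31 (33996 of 7112701) than in early sample 9 (26299 of 5371162). The groups also overlapped in plain share for miR-193b-3p, miR-30a-3p, miR-1456-5p and let-7l-5p. Over all 266 the median log2 fold change was -0.05 and 121 were higher in late tumour. The median standard error (SE) was 0.31 on the log2 scale, in a fit whose spread was estimated from all 13 libraries. Even miR-24-3p, with a log2 fold change of -0.96 ± 0.21 SE, was not called by edgeR. A difference several times a miRNA's own SE could therefore go unseen here.

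**Figure D1:**
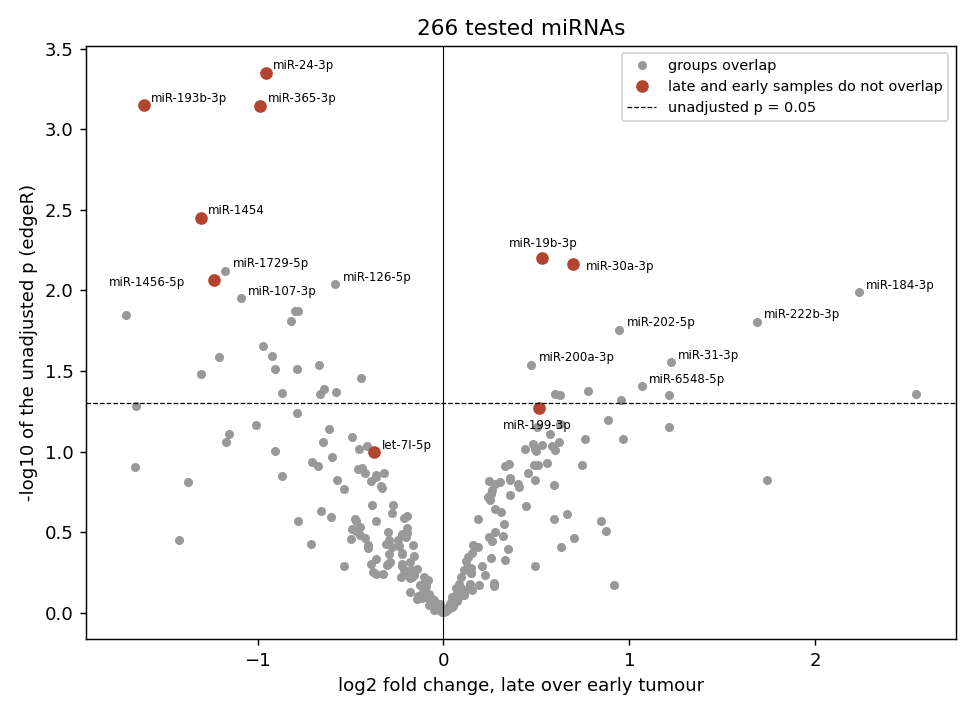
Each of the 266 tested miRNAs is a point, with the log2 fold change of late over early tumour on the x axis and -log10 of the unadjusted edgeR p on the y axis. Red points are the 9 miRNAs whose late and early samples do not overlap in normalised CPM, led by miR-24-3p, miR-193b-3p and miR-365-3p on the lower side. The dashed line marks an unadjusted p of 0.05.

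The smallest p belonged to miR-24-3p, which in mammals restrains genes of the cell cycle. It stood at 2172, 3859, 1847, 2265 and 1982 CPM in late samples 3, 7, 23, 25 and 31, against 3903, 5197, 5694 and 4039 CPM in early samples 9, 11, 12 and 21. Every late sample lay below every early sample, though late sample 7 was close to early sample 9. The means were 2425 ± 818 CPM in late and 4708 ± 877 CPM in early tumour, a log2 fold change of -0.96 ± 0.21 SE (edgeR adjusted p = 0.0633, DESeq2 adjusted p = 0.0147, voom adjusted p = 0.0631). Normal ovary stood at 4784 ± 327 CPM (n = 4). Without late sample 7 the log2 fold change was -1.23 and edgeR called it (adjusted p = 0.00112). Of the fits that left out a tumour sample, the highest edgeR adjusted p was 0.298, without early sample 12 (log2 fold change -0.86).

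The fold changes of its genomic neighbours were smaller, and the difference between them and miR-24-3p was not tested. In the RefSeq gene table one gene of miR-24 lies within 10 kb of miR-23b and miR-27b, a cluster found across vertebrates. In that cluster miR-23b-3p stood at 2004 ± 477 CPM in late and 1954 ± 541 CPM in early tumour, and miR-27b-3p at 1933 ± 296 CPM in late and 2237 ± 212 CPM in early tumour. The rare arm miR-27b-5p stood at 18.0 ± 3.97 CPM in late and 31.6 ± 11.1 CPM in early tumour (log2 fold change -0.82 ± 0.30 SE, edgeR adjusted p = 0.26). The other arm of the miR-24 hairpin, miR-24-5p, stood at 5.81 ± 2.92 CPM in late and 7.15 ± 1.27 CPM in early tumour. Of the 6 miRNAs of the cluster 5 were lower in late tumour, with a median log2 fold change of -0.34. The cluster lies within the span of AOPEP, an aminopeptidase gene, whose messenger RNA stood at 13.3 ± 1.69 TPM (transcripts in 1000000) in late and 12.3 ± 0.83 TPM in early tumour. The RefSeq table used gives no strand, so overlap here means position alone.

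miR-193b-3p and miR-365-3p had the next smallest p, and a gene of each lies within 10 kb of the other. In mammals both come from one transcript, and miR-193b is known for lowering the protease urokinase. miR-193b-3p stood at 162.1, 134.5, 139.3, 124.5 and 175.2 CPM in late samples 3, 7, 23, 25 and 31, against 177.5, 955.9, 415.2 and 252.8 CPM in early samples 9, 11, 12 and 21. The late samples were tightly grouped at 147.1 ± 20.9 CPM and the early samples wide at 450.4 ± 351.3 CPM, with early sample 11 far above the rest. Late sample 31 lay just below early sample 9. The log2 fold change was -1.61 ± 0.38 SE (edgeR adjusted p = 0.0633, DESeq2 adjusted p = 0.0147, voom adjusted p = 0.236), and -0.88 without early sample 11 (edgeR adjusted p = 0.242).

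miR-365-3p stood at 51.4, 44.4, 47.2, 37.8 and 37.6 CPM in late samples 3, 7, 23, 25 and 31, against 85.7, 95.0, 110.0 and 55.9 CPM in early samples 9, 11, 12 and 21. The groups did not overlap, and early sample 21 lay nearest to the late samples. The log2 fold change was -0.99 ± 0.23 SE (edgeR adjusted p = 0.0633, DESeq2 adjusted p = 0.0147, voom adjusted p = 0.0534). Without early sample 21 edgeR called miR-365-3p (adjusted p = 0.0413) with miR-193b-3p (adjusted p = 0.0479) and miR-24-3p (adjusted p = 0.05, just under the threshold before rounding). Leaving out any other tumour sample gave miR-365-3p an edgeR adjusted p of 0.103 to 0.33. Normal ovary stood at 44.1 ± 8.98 CPM for miR-365-3p and 238.8 ± 51.9 CPM for miR-193b-3p. The related miR-193a-3p had a log2 fold change of 0.28, in the other direction.

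**Figure D2:**
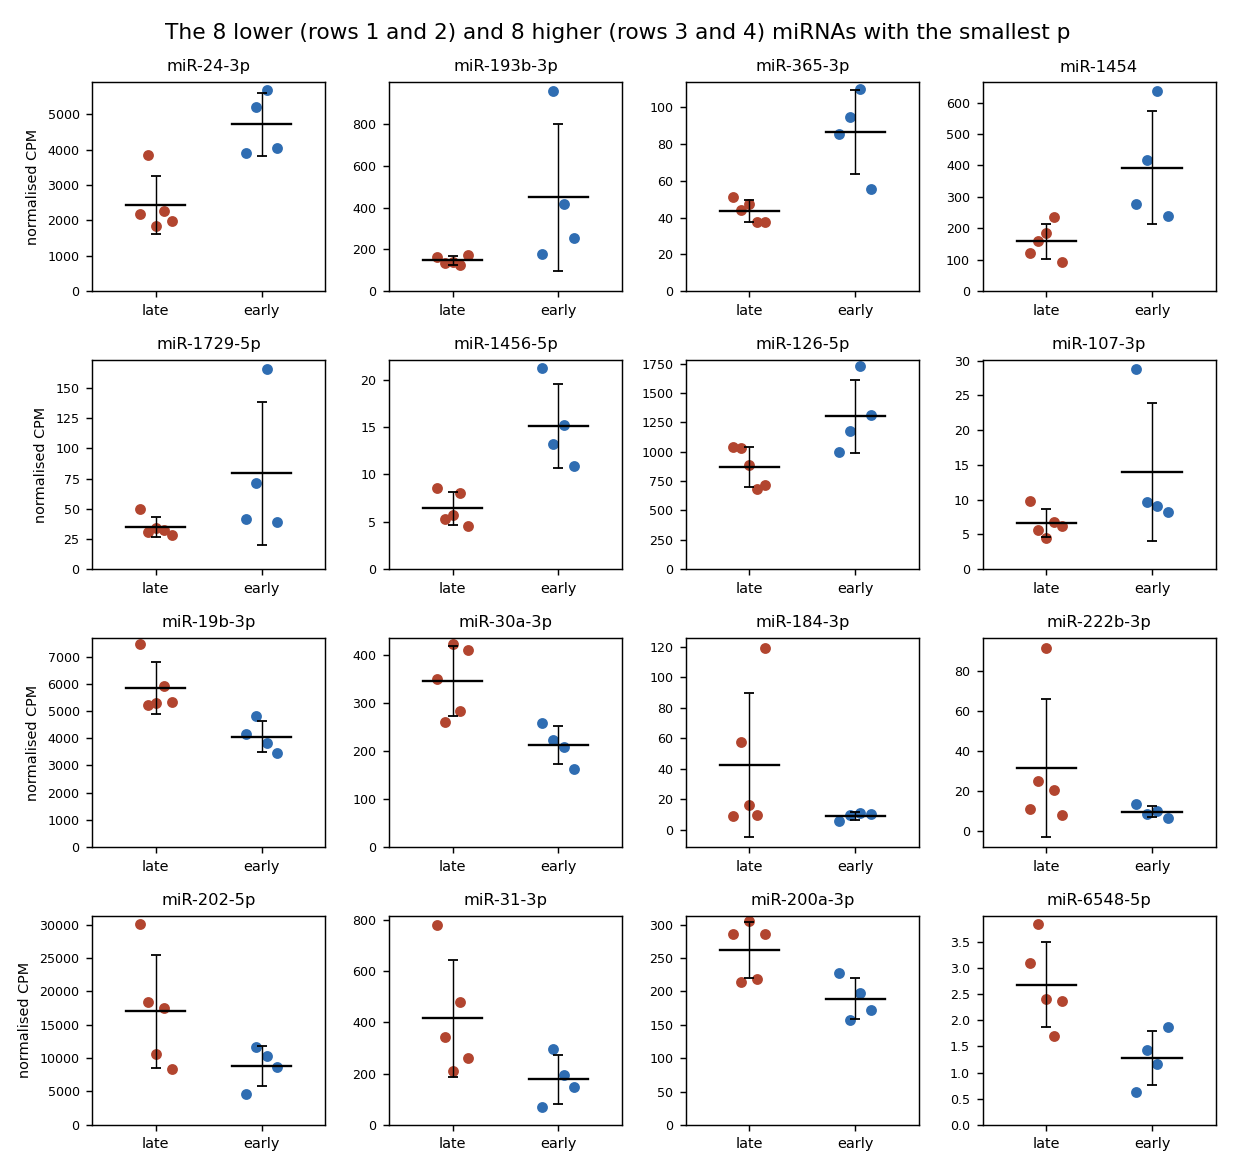
Each panel shows 1 miRNA, with normalised CPM on the y axis, late tumour samples (red, n = 5) on the left and early tumour samples (blue, n = 4) on the right. The black line is the mean and the bar 1 SD. The groups do not overlap for miR-365-3p, miR-1456-5p and miR-19b-3p, nor, by a narrow gap, for miR-24-3p, miR-193b-3p, miR-1454 and miR-30a-3p. Among the higher ones, miR-184-3p and miR-222b-3p are high in 1 or 2 late samples.

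Of the other lower miRNAs, miR-1454 and miR-1456-5p also separated the groups in normalised CPM, though miR-1456-5p did not as a plain share of counts. miR-1454 stood at 122.0, 158.9, 183.7, 237.0 and 93.8 CPM in late samples 3, 7, 23, 25 and 31, against 275.9, 418.6, 637.3 and 240.2 CPM in early samples 9, 11, 12 and 21. The highest late sample and the lowest early sample were almost equal (log2 fold change -1.30 ± 0.38 SE, edgeR adjusted p = 0.237). miR-1456-5p was far rarer, at 6.42 ± 1.75 CPM in late and 15.1 ± 4.44 CPM in early tumour, with 29 to 134 counts a library (-1.24 ± 0.41 SE, edgeR adjusted p = 0.26).

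miR-126-5p, the less abundant arm of the endothelial hairpin, stood at 870.5 ± 169.9 CPM in late and 1303 ± 311 CPM in early tumour (log2 fold change -0.58 ± 0.19 SE, edgeR adjusted p = 0.26). Only early sample 9, at 997.5 CPM, overlapped the late range of 678.4 to 1037 CPM. The abundant arm, miR-126-3p, stood at 53130 ± 10452 CPM in late and 49708 ± 5338 CPM in early tumour. miR-126 lies within EGFL7, a gene of endothelial cells, whose messenger RNA stood at 110.8 ± 20.9 TPM in late and 90.9 ± 29.7 TPM in early tumour.

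For miR-1729-5p and miR-107-3p a single early sample stood far above the others. miR-1729-5p stood at 27.9 to 49.5 CPM in late samples and at 39.1, 41.7, 71.2 and 165.7 CPM in early samples, with early sample 12 the highest (log2 fold change -1.17 ± 0.38 SE, edgeR adjusted p = 0.26), and without it the log2 fold change was -0.53. miR-107-3p, which lies within the pantothenate kinase gene PANK1, stood at 4.52 to 9.84 CPM in late samples and at 8.16, 9.05, 9.73 and 28.8 CPM in early samples. Its log2 fold change of -1.09 ± 0.38 SE was -0.46 without early sample 9 (edgeR adjusted p = 0.53).

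On the higher side, miR-19b-3p and miR-30a-3p separated the groups in normalised CPM, though not as a plain share of counts. miR-19b, a member of the miR-17-92 cluster, which in mammals favours cell proliferation, stood at 7484, 5227, 5315, 5919 and 5351 CPM in late samples 3, 7, 23, 25 and 31, against 4165, 4805, 3830 and 3440 CPM in early samples 9, 11, 12 and 21. All late samples lay above all early samples, with late sample 3 highest (log2 fold change 0.53 ± 0.17 SE, edgeR adjusted p = 0.26). Normal ovary stood at 3686 ± 479 CPM. miR-30a-3p stood at 345.0 ± 72.9 CPM in late and 212.6 ± 39.4 CPM in early tumour (0.70 ± 0.22 SE, edgeR adjusted p = 0.26), with late sample 7 at 260.4 CPM just above early sample 9 at 257.7 CPM.

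miR-202-5p, which in vertebrates is made mainly in ovary and testis, was the most abundant of the miRNAs at an unadjusted p under 0.05. It stood at 30015, 18416, 10595, 17548 and 8311 CPM in late samples 3, 7, 23, 25 and 31, against 4685, 11646, 10328 and 8599 CPM in early samples 9, 11, 12 and 21. The groups overlapped, since late samples 23 and 31 lay within the early range (log2 fold change 0.95 ± 0.35 SE, edgeR adjusted p = 0.273). Without late sample 3 the log2 fold change was 0.61. Normal ovary stood at 14225 ± 3137 CPM. The rarer miR-202-3p stood at 31.2 ± 19.6 CPM in late and 17.0 ± 6.28 CPM in early tumour. Granulosa cell messenger RNAs, whose part in this was not tested, had a median of 34.5 TPM in late and 22.4 TPM in early tumour for FSHR, the receptor of follicle-stimulating hormone, and of 156.7 TPM in late and 104.0 TPM in early tumour for AMH, with overlapping ranges.

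miR-31, an epithelial miRNA, was higher on both arms. miR-31-3p stood at 780.3, 341.7, 210.5, 481.6 and 262.7 CPM in late samples 3, 7, 23, 25 and 31, against 71.4, 297.0, 196.4 and 146.2 CPM in early samples 9, 11, 12 and 21 (log2 fold change 1.23 ± 0.50 SE, edgeR adjusted p = 0.321). miR-31-5p stood at 3470 ± 1678 CPM in late and 1790 ± 825 CPM in early tumour (0.96 ± 0.44 SE, edgeR adjusted p = 0.334). For both arms late samples 3 and 25 were the highest of the 9, and the groups overlapped. miR-200a-3p, of the family that holds epithelial cells in their state, stood at 262.2 ± 42.4 CPM in late and 189.0 ± 30.9 CPM in early tumour (0.47 ± 0.19 SE, edgeR adjusted p = 0.321).

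miR-184-3p and miR-222b-3p had the greatest log2 fold changes among the 8 higher miRNAs with the smallest p, and both rested on few samples. miR-184-3p stood at 57.4 and 119.5 CPM in late samples 7 and 31, while the other late samples stood at 8.96 to 16.4 CPM and early samples at 5.54 to 10.8 CPM. The log2 fold change was 2.24 ± 0.75 SE (edgeR adjusted p = 0.26, DESeq2 adjusted p = 0.0352, voom adjusted p = 0.311), and 1.42 without late sample 31. miR-222b-3p stood at 91.8 CPM in late sample 23, while the other late samples stood at 8.03 to 25.2 CPM and early samples at 6.73 to 13.5 CPM. Its log2 fold change was 1.69 ± 0.61 SE (edgeR adjusted p = 0.26), and 0.73 without late sample 23. miR-6548-5p, with 4 to 24 counts a library, stood at 2.68 ± 0.81 CPM in late and 1.27 ± 0.51 CPM in early tumour (1.07 ± 0.47 SE, edgeR adjusted p = 0.321).

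The tested miRNAs were then read by 32 lists of families, clusters and cell types, which held 176 of the 266. Beside each list stands the background over all 266, of which 121 were higher and 38 (14.3%) had an unadjusted p under 0.05. No member of any list had an edgeR adjusted p under 0.05, while 3 of the 4 miRNAs that DESeq2 called, miR-24-3p, miR-193b-3p and miR-365-3p, are list members. For the miR-302 and miR-367 list, which marks early embryonic and germ cells, 0 of 7 names passed the filter, with 14 counts over all 13 libraries.

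Of the miR-34 and miR-449 list, known in vertebrates for multiciliated cells and, for miR-34, the p53 response, 8 of 8 tested members were higher in late tumour. The median log2 fold change was 0.92, and 2 members had an unadjusted p under 0.05. The 8 are not separate readings, since miR-449a lies within 10 kb of miR-449b, miR-449c and miR-449d, and miR-34b of miR-34c. Late sample 3 was the highest tumour sample for every tested member but miR-34a-5p, for which it was the lowest. miR-449a stood at 897.4, 300.0, 273.8, 426.3 and 268.4 CPM in late samples 3, 7, 23, 25 and 31, against 59.6, 334.8, 273.4 and 81.4 CPM in early samples 9, 11, 12 and 21. Early samples 9 and 21 were the low ones, and early samples 11 and 12 stood among the late samples. Its log2 fold change was 1.21 ± 0.55 SE (edgeR adjusted p = 0.321), and 0.75 without late sample 3. miR-34b-3p stood at 51.4 CPM in late sample 3 and at 1.73 to 10.7 CPM in the other late samples, against 0.634 to 6.01 CPM in early samples, a log2 fold change of 2.54 ± 1.14 SE (edgeR adjusted p = 0.321) and of 1.19 without late sample 3. The abundant member, miR-34a-5p, stood at 2151 ± 971 CPM in late and 1987 ± 584 CPM in early tumour.

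The epithelial lists differed among themselves. Of the miR-200 family 2 of 4 tested members were higher and 2 lower (median log2 fold change 0.03), and its summed level was 1794 to 1961 CPM in late and 1781 to 2362 CPM in early samples. miR-429-3p, its most abundant member, stood at 1117 ± 124 CPM in late and 1279 ± 274 CPM in early tumour. Of the other epithelial miRNAs 4 of 4 were higher, of which 2 were the arms of miR-31. The miR-183 cluster was lower for both tested members, with miR-182-5p at 28.7 ± 21.3 CPM in late and 39.9 ± 5.96 CPM in early tumour. Late sample 31 was nevertheless the highest tumour sample for both, at 65.3 CPM for miR-182-5p and 39.8 CPM for miR-183. The other late samples stood at 10.9 to 27.0 CPM for miR-182-5p, against 32.8 to 46.6 CPM in early samples. Messenger RNA of EPCAM, an epithelial surface protein, ran from 886.1 to 1624 TPM in late and from 504.9 to 1302 TPM in early samples.

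Red blood cell miRNAs were lower in late tumour by their means, with 2 of 2 tested members at a median log2 fold change of -1.16, and early sample 11 was the highest for both. miR-451 stood at 63437, 32171, 75922, 67199 and 129671 CPM in late samples 3, 7, 23, 25 and 31, against 32602, 465195, 77819 and 87012 CPM in early samples 9, 11, 12 and 21. Without early sample 11 its log2 fold change was 0.24, in the other direction, and that of miR-144-3p was -0.22, against -1.16 with all samples. Haemoglobin messenger RNAs HBA1 and HBBA were also highest in early sample 11, at 431.8 and 398.9 TPM. HBAD was highest in early sample 9 (80.5 TPM, against 74.8 TPM in early sample 11). Early sample 9, with the lowest early miR-451, had 255.8 TPM of HBA1. HBA1 ranged from 24.2 to 211.7 TPM in late and from 67.5 to 431.8 TPM in early samples. Late sample 31, with the highest late miR-451, had the lowest HBA1, though late sample 3 was close (24.2 and 24.4 TPM). HBAD was lowest in late sample 3 (6.32 TPM, against 7.54 TPM in late sample 31). In bulk tissue, fewer cells of a type and less RNA per cell cannot be told apart.

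Immune cell miRNAs were higher for 9 of 9 tested members, by a median log2 fold change of 0.24, with 0 at an unadjusted p under 0.05. These members include both arms of miR-142, miR-146a and miR-146c. The log2 fold change was only 0.01 for miR-146b-5p, 0.03 for miR-223, and 0.05 for miR-146a-5p and miR-142-3p. miR-223 of myeloid cells stood at 750.8 ± 146.5 CPM in late and 733.6 ± 145.9 CPM in early tumour. miR-155, a miRNA of activated lymphocytes and macrophages, stood at 52.6 CPM in late sample 23 and at 4.79 to 14.1 CPM in the other late samples, against 6.73 to 7.73 CPM in early samples. The most abundant member, miR-146c-5p, stood at 19642 ± 3737 CPM in late and 16614 ± 978 CPM in early tumour. Messenger RNA of PTPRC, the leukocyte surface protein CD45, ranged from 1.18 to 4.66 TPM in late and from 1.15 to 3.80 TPM in early samples, highest in late sample 23. CSF1R, a receptor of macrophages, ranged from 17.6 to 40.9 TPM in late and from 19.95 to 42.1 TPM in early samples, highest in early sample 11.

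Among vessel, muscle and stromal miRNAs the lists had no common direction. The median log2 fold change was -0.30 for miR-143 and miR-145 and -0.32 for striated muscle miRNAs. It was 0.04 for miR-199 and miR-214 and 0.08 for the list of miR-140, miR-455 and miR-365, which also holds miR-193a and miR-193b. Of the 8 tested members of that list 5 were higher and 3 lower. The 3 lower ones, miR-140-5p, miR-193b-3p and miR-365-3p, had an unadjusted edgeR p under 0.05, against 38 of all 266 miRNAs (14.3%). This count is no test of the list, which was chosen with earlier results of these data known. Genes of miR-193b and miR-365 also lie within 10 kb of each other, and miR-140-5p had 4 to 23 counts a tumour library. The arms of miR-126 had opposite signs (-0.58 for 5p and 0.10 for 3p). Their summed level had a median of 55538 CPM in late and 50592 CPM in early tumour. miR-143-3p, a miRNA of smooth muscle, stood at 90249 ± 22085 CPM in late and 127003 ± 42950 CPM in early tumour (log2 fold change -0.49 ± 0.26 SE, edgeR adjusted p = 0.406), and its rare arm miR-143-5p at 6.72 ± 3.07 CPM in late and 12.8 ± 3.56 CPM in early tumour. miR-145-5p, of the same cluster, stood at 13962 ± 1669 CPM in late and 12571 ± 2561 CPM in early tumour. Of striated muscle miRNAs 4 of 6 tested members were lower, and miR-133a-3p stood at 563 ± 333 CPM in late and 636.8 ± 71.8 CPM in early tumour, with late sample 31 at 1140 CPM. Of the miR-199 and miR-214 list 2 of 3 were higher, and for miR-199-3p all late samples (169.3 to 257.0 CPM) lay above all early samples (140.8 to 162.0 CPM). Messenger RNAs of these cells were not all on one side, and their part in the miRNA values was not tested. Among endothelial markers CDH5, a cadherin, had a median of 11.9 TPM in late and 21.4 TPM in early tumour, and KDR, a receptor of vascular growth factor, 1.62 TPM in late and 2.51 TPM in early tumour, while EGFL7 had 106.8 TPM in late and 90.8 TPM in early tumour. The smooth muscle markers ACTG2 and TAGLN had medians of 92.4 and 124.7 TPM in late tumour, against 127.1 and 284.8 TPM in early tumour. The collagens COL1A1 and COL3A1 of fibroblasts had medians of 37.4 and 150.5 TPM in late tumour, against 104.7 and 344.8 TPM in early tumour. Late and early ranges overlapped for all 7 of these markers.

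Proliferation and differentiation lists had no common direction. Of 17 tested members of the miR-17-92 cluster and its paralogues 8 were higher and 9 lower (median log2 fold change -0.01), and 1, miR-19b-3p, had an unadjusted p under 0.05. miR-17-5p stood at 653.7 ± 155.5 CPM in late and 750.4 ± 12.6 CPM in early tumour, and miR-20a-5p at 1001 ± 147 CPM in late and 880.4 ± 104.4 CPM in early tumour. Under other scalings the median of this list was above 0, up to 0.06. Of 14 tested let-7 members, which rise as cells differentiate, 5 were higher and 9 lower (median -0.07), and let-7b stood at 18768 ± 6376 CPM in late and 21399 ± 5918 CPM in early tumour, with late sample 3 at 7614 CPM. Of the miR-15 and miR-16 list, which restrains the cell cycle in mammals, 5 of 5 were lower, and miR-16-5p stood at 3530 ± 382 CPM in late and 4805 ± 1273 CPM in early tumour (log2 fold change -0.45 ± 0.19 SE, edgeR adjusted p = 0.321). The medians of the HOX cluster and miR-30 lists (-0.03 each) and of the miR-29 list (-0.11) also changed sign under at least 1 other scaling.

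The remaining lists with a member at an unadjusted p under 0.05 are given by that member. miR-10b-5p, from the HOX clusters, stood at 309.0 ± 90.9 CPM in late and 461.6 ± 73.8 CPM in early tumour, while miR-10a-5p stood at 20174 ± 5213 CPM in late and 18916 ± 6332 CPM in early tumour. miR-125b-3p stood at 421.3 ± 77.7 CPM in late and 272.9 ± 118.1 CPM in early tumour, while the other arm, miR-125b-5p, had a log2 fold change of -0.23. From the same list miR-99a-5p, the second most abundant in late samples, stood at 119325 ± 26365 CPM in late and 93046 ± 12422 CPM in early tumour. miR-30e-3p stood at 39.3 ± 10.1 CPM in late and 26.0 ± 7.44 CPM in early tumour. The rare miR-140-5p and miR-130a-5p stood at 1.42 ± 0.47 and 1.37 ± 0.37 CPM in late tumour, against 3.74 ± 2.86 and 2.60 ± 1.28 CPM in early tumour. miR-10b-5p, miR-125b-3p, miR-30e-3p, miR-140-5p and miR-130a-5p each had an edgeR adjusted p of 0.321.

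**Figure D3:**
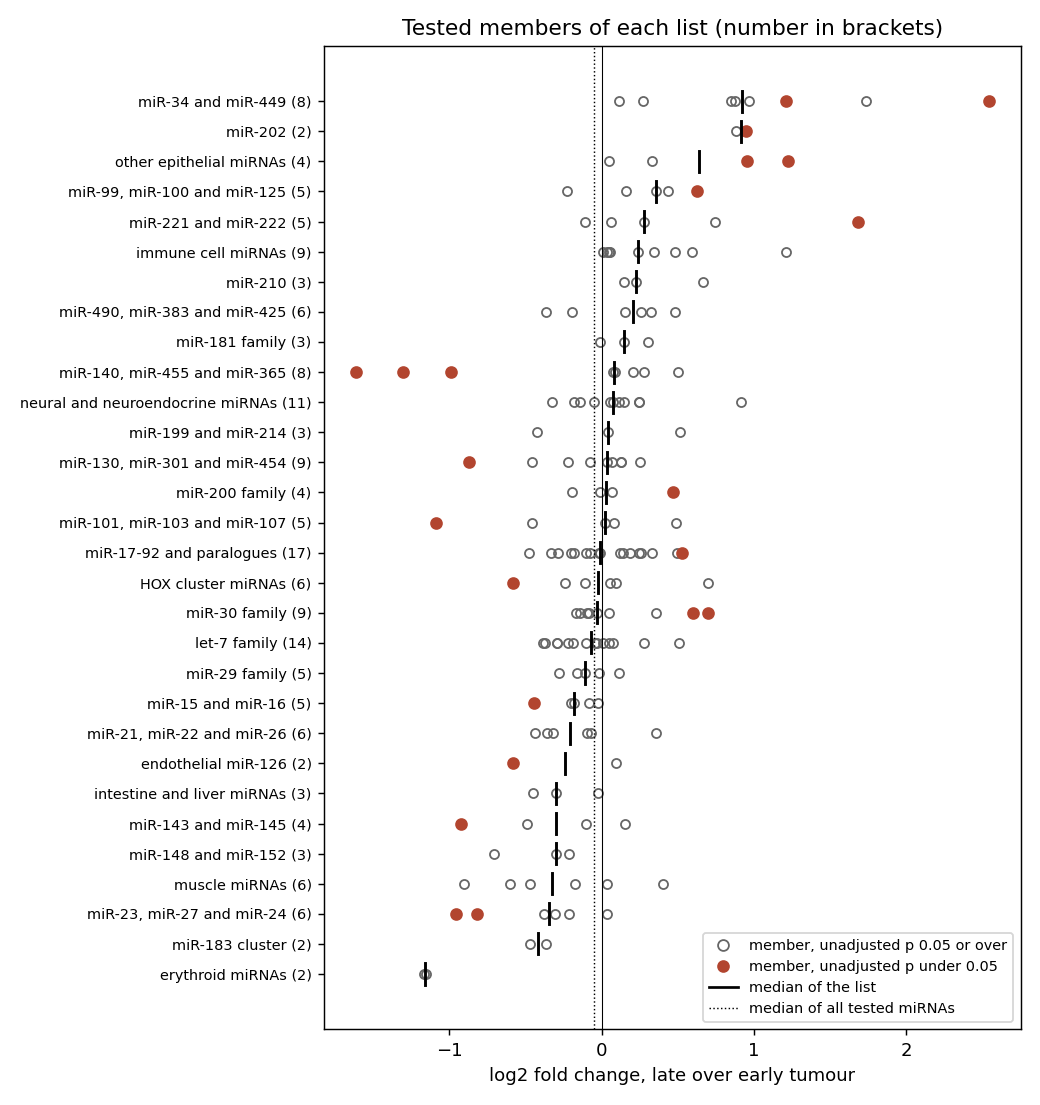
Each row is a list with at least 2 tested members, and each point is 1 member at its log2 fold change of late over early tumour. Filled red points have an unadjusted p under 0.05, the black bar is the median of the list, and the dotted line is the median of all 266 tested miRNAs at -0.05. The miR-34 and miR-449 list lies highest with a median of 0.92, and the erythroid list lowest with -1.16.

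None of the 8 most abundant miRNAs passed the test. miR-26a-2-5p stood at 304391 ± 76920 CPM in late and 237547 ± 35858 CPM in early tumour (log2 fold change 0.36 ± 0.26 SE, edgeR adjusted p = 0.479), with late sample 3 lowest at 174945 CPM. miR-21-5p, a miRNA raised in many human tumours, stood at 34878 ± 6897 CPM in late and 43550 ± 10741 CPM in early tumour (-0.32 ± 0.20 SE, edgeR adjusted p = 0.443). miR-22-3p stood at 19766 ± 5938 CPM in late and 25397 ± 4313 CPM in early tumour, and miR-181a-5p at 22956 ± 4857 CPM in late and 18570 ± 840.0 CPM in early tumour. The names miR-26a-5p, let-7a-5p and let-7j-5p are listed at 0 in all 13 libraries, and how reads that match several names were counted is not given in the sources used here.

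Both arms passed the filter for 65 hairpins, paired by name. The other arm is a second reading of the same transcript only where a single gene makes both. Some names, such as miR-19b and miR-199, match several genes of the RefSeq table. The arms had one sign in 36 hairpins and opposite signs in 29. Across these hairpins Pearson's r of the arms' log2 fold changes was 0.58, where arms share their libraries and hairpins are not independent replicates. In 3 hairpins both arms had an unadjusted p under 0.05, miR-31 higher, and miR-460a and miR-12211 lower (miR-460a and miR-12211 are in none of the lists and were chosen after their values were seen). miR-460a-5p stood at 250.0 ± 85.7 CPM in late and 429.5 ± 59.3 CPM in early tumour, and miR-460a-3p at 12.9 ± 3.79 CPM in late and 20.5 ± 6.80 CPM in early tumour. Without early sample 11 the arms of miR-12211 had log2 fold changes of -0.20 (5p) and -0.39 (3p), against -0.79 and -0.64 with all samples, while those of miR-460a were -0.70 (5p) and -0.75 (3p). In miR-30a, miR-30e, miR-125b, miR-19b and miR-200a the 3p arm was higher at an unadjusted p under 0.05 while the 5p arm had a log2 fold change between -0.23 and -0.01.

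**Figure D4:**
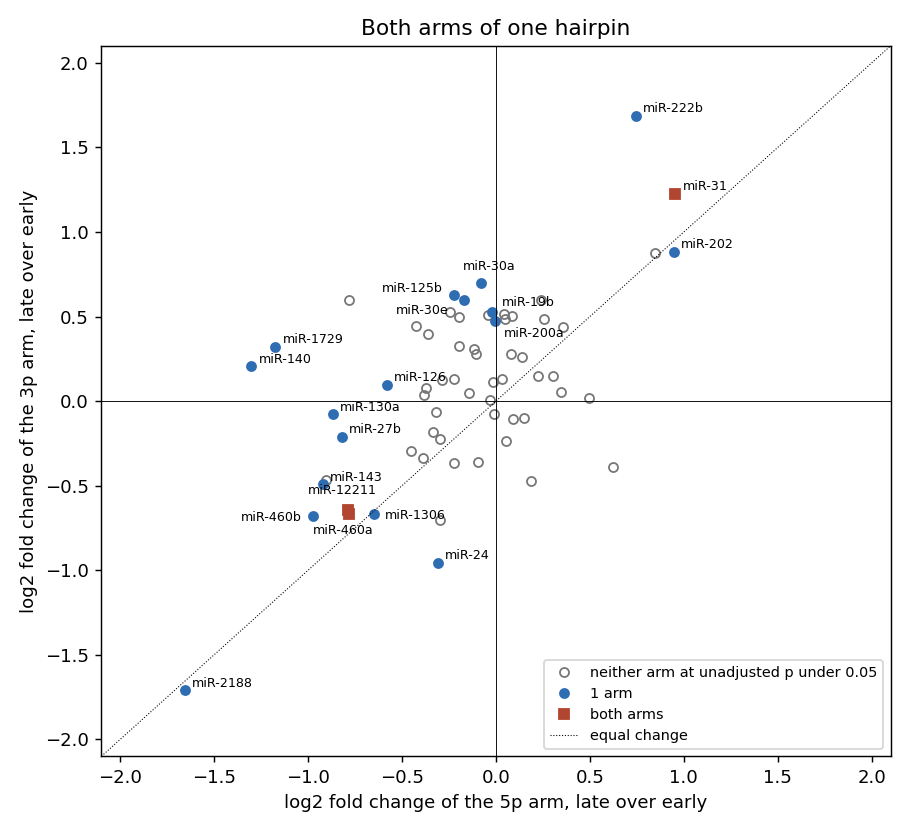
Each of 65 hairpins is a point, with the log2 fold change of its 5p arm on the x axis and of its 3p arm on the y axis, late over early tumour. Red squares are the 3 hairpins with both arms at an unadjusted p under 0.05 and blue points those with 1 such arm. Most points lie above the dotted line of equal change, with miR-31 at the upper right (0.96 on 5p and 1.23 on 3p) and miR-2188 at the lower left (-1.66 on 5p and -1.71 on 3p, but 0.42 and -0.62 without early sample 11).

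**Figure D5:**
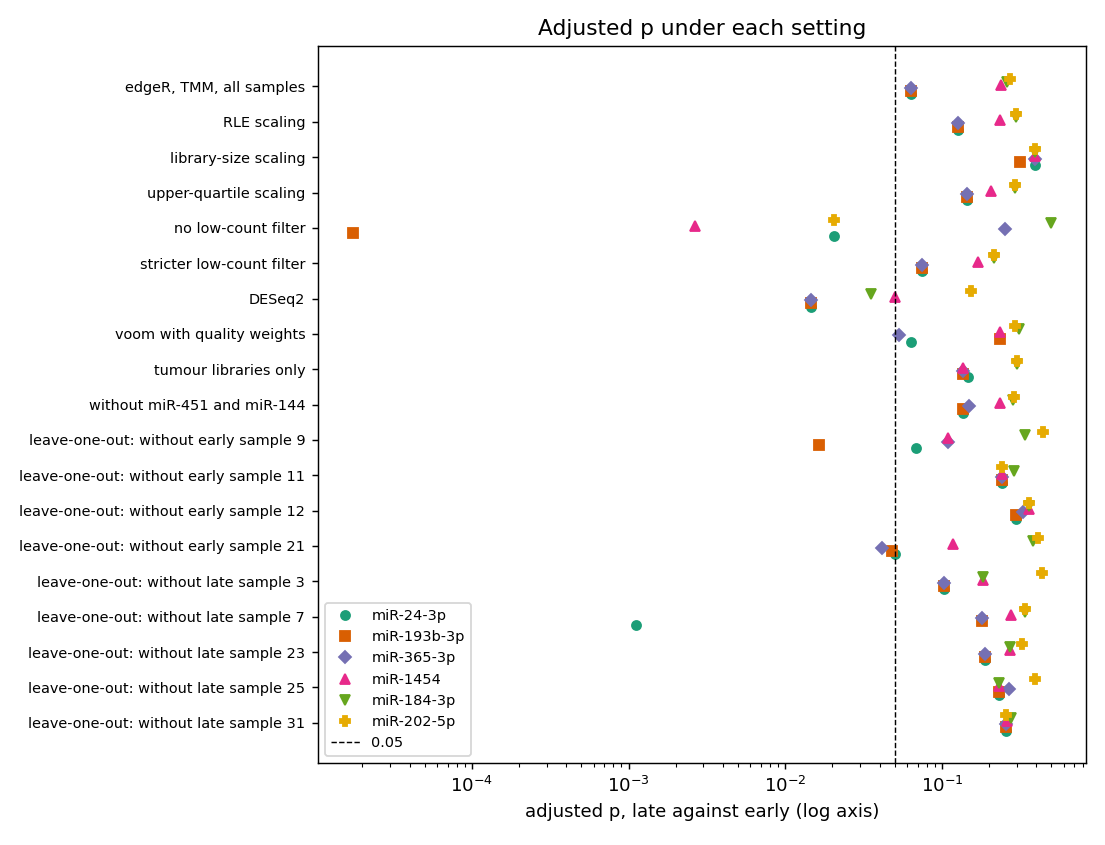
The adjusted p of late against early tumour (x axis, log scale) is shown for 6 miRNAs under the edgeR test with all samples and under 18 alternatives (y axis), with a dashed line at 0.05. With all samples the lowest 3 stand at 0.0633, and points left of the line appear with DESeq2, without the low-count filter, and without early samples 9 or 21 or late sample 7.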

How the data were processed

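Raw counts per miRNA name, deposited by the authors as 1 table of 1236 rows, were used without the row named *, which held 0 counts. Messenger RNA levels are TPM deposited by the authors and were used for host genes and cell markers alone, with no test. The table's length column, per the file headers, was read as the mature length. Per the submitters' processing notes the tools included BWA, FastQC and GATK 3.3.0, without a stated task for each. Which program counted the miRNAs, how it treated strand and on which genome is not given in the sources used here. Each sample code has 2 library records whose RNA kind the labels do not state, so a column was given its group from its code alone.

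All 13 libraries entered 1 edgeR 4.0.16 quasi-likelihood fit in R 4.3.3 (glmQLFit, robust, TMM, filterByExpr with minimum count 10), contrast late minus early, with Benjamini-Hochberg adjustment over 266 miRNAs. SE is the log2 fold change divided by the square root of F. DESeq2 1.42.0, limma 3.58.1 voom, other scalings and filters, a tumour-only fit and leaving out each tumour sample were the alternatives. The steps were tested on simulated data. Libraries of a tumour group differed by more than counting noise in all 16 pairs (chi-square per degree of freedom at least 445.2), so none was a library deposited again, which does not tell technical from biological repeats.

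The 55 miRNAs named by rule were any called by a tool, the 8 smallest p in each direction, the 8 most abundant, and for each list the most abundant member and those at an unadjusted p under 0.05. The members and lists were chosen with earlier results of these data known. All 55 matched a gene of the RefSeq table (assembly GRCg7b), used for neighbours within 10 kb and host genes by position.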

Additional observations from a re-analysis of the deposited data

Results flagged for a closer look

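For the named miRNAs, each of 110 groups of samples was checked for a sample far from the others of its group, by the gap to its nearest neighbour as a share of the group's range, and 11 were marked. The limit used is Dixon's, which chance passes in about 1 in 20 groups of independent, normally distributed values. These groups share the same 9 libraries and are not independent, and whether their CPM values are normally distributed was not tested.

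Late sample 3 was marked 4 times. It stood at 51.4 CPM for miR-34b-3p, 897.4 CPM for miR-449a and 609.1 CPM for miR-130c-3p, where the other late samples reached at most 10.7, 426.3 and 462.0 CPM. For let-7b it stood at 7614 CPM, where the other late samples had at least 19655 CPM. Late sample 7 was marked for miR-24-3p at 3859 CPM (others 1847 to 2265 CPM), late sample 23 for miR-222b-3p at 91.8 CPM (others 8.03 to 25.2 CPM) and late sample 31 for miR-133a-3p at 1140 CPM (others 285.8 to 505.4 CPM).

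Early sample 11 was marked for miR-451 at 465195 CPM (others 32602 to 87012 CPM) and for miR-30c-5p at 1721 CPM (others 2531 to 2637 CPM). Early sample 9 was marked for miR-107-3p at 28.8 CPM (others 8.16 to 9.73 CPM) and for miR-429-3p at 1688 CPM (others 1112 to 1183 CPM).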

How the results depend on the processing

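The count of called miRNAs was 0 under 13 of 18 alternatives. It was 4 with DESeq2 and 5 without the low-count filter, where 777 miRNAs were tested (miR-24-3p, miR-193b-3p, miR-202-5p, miR-1454 and miR-2188-3p). When each tumour sample was left out in turn, 0 to 3 were called, with 1 without early sample 9 (miR-193b-3p), 3 without early sample 21 and 1 without late sample 7 (miR-24-3p). The cause was not tested. Across these settings miR-24-3p had an adjusted p of 0.00112 to 0.393, and the range was 1.74e-05 to 0.314 for miR-193b-3p, 0.0147 to 0.393 for miR-365-3p, 0.0352 to 0.494 for miR-184-3p and 0.0206 to 0.44 for miR-202-5p. None of the 16 miRNAs with full statistics changed direction under any alternative in which they were tested. The median log2 fold change of all miRNAs lay between -0.11 and 0.02, the lowest without late sample 3. The sum of names with one mature sequence was not run, since the sequences were not used here. No paired analysis was possible because late and early samples share no code number. Late samples 3 and 7 share their code numbers with normal samples 3 and 7. The labels do not say whether these are of one hen, and the fit took all samples as independent.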

Other observations

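The 2 arms of miR-2188 are in none of the lists and were chosen after their values were seen. Its 5p arm moved sample by sample much as miR-451 did. miR-2188-5p stood at 2152, 1735, 3485, 2822 and 7064 CPM in late samples 3, 7, 23, 25 and 31, against 1711, 35441, 3697 and 2695 CPM in early samples 9, 11, 12 and 21. Early sample 11 was the highest and late sample 31 the next for both miR-2188-5p and miR-451, and early sample 11 was also the highest for miR-144-3p, the neighbour of a miR-451 gene, at 34.3 CPM. The log2 fold change of miR-2188-5p was -1.66 ± 0.77 SE (edgeR adjusted p = 0.355), and 0.42, in the other direction, without early sample 11 (edgeR adjusted p = 0.698). The rare miR-2188-3p was also highest in early sample 11 (24.9 CPM). For this arm late sample 31 (4.88 CPM) lay below early samples 12 and 21 (5.84 and 6.30 CPM). Its log2 fold change was -1.71 with all samples and -0.62 without early sample 11.

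The 3p arm changed more towards late tumour than its 5p arm in 48 of 65 hairpins, by a median of 0.25 on the log2 scale. The median over hairpins of the centred log2 ratio of 3p to 5p (0.5 CPM added) was 0.16, 0.04, 0.13, 0.10 and 0.09 in late samples 3, 7, 23, 25 and 31, against -0.04, -0.01, -0.08 and -0.15 in early samples 9, 11, 12 and 21. All late samples lay above all early samples in this summary, while for single hairpins the ratio separated the groups in 0 of 65. The summary is drawn from the same 65 hairpins as the count of 48, so it is not a second result. By mature length the median log2 fold change was 0.17 at 20 nucleotides or under (8 miRNAs), -0.05 at 21 (49 miRNAs), -0.08 at 22 (135 miRNAs), 0.08 at 23 (49 miRNAs) and -0.09 at 24 or over (25 miRNAs).

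miR-155, miR-222b-3p and PTPRC messenger RNA were each highest in late sample 23, while miR-223 was highest in late sample 25 and CSF1R messenger RNA in early sample 11. Late sample 3 had the highest miR-202-5p, miR-31-3p, miR-449a and EPCAM values of the 9 tumour samples, and the lowest let-7b, let-7c-5p and let-7f-5p values.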
